A study of Mus musculus with 12 samples.

Results

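The CCN family genes Ccn1 (Cyr61), Ccn2 (Ctgf), Ccn3 (Nov), Ccn4 (Wisp1) and Ccn5 (Wisp2) were followed in mouse cardiac myocytes given recombinant CTGF, the protein that Ccn2 encodes. Every probe annotated to one of these 5 genes, of 19053 genes with a symbol in the array's annotation, was taken, which gave 10 of the 45281 probes on the array. There were 3 probes for Ccn1, 2 each for Ccn2, Ccn3 and Ccn4, and 1 for Ccn5. Myocytes were isolated by collagenase perfusion from hearts of C57BL/6 mice aged 12 to 16 weeks and plated on laminin in medium with 10 mmol/L BDM, which blocks contraction. The CTGF group (6 arrays) was kept for 48 h with CTGF at 200 nmol/L and the Control group (6 arrays) for the same time without it, and all else named in the labels was common to both groups. Whether the 6 samples of a group came from separate hearts or cell preparations is not given, so p-values reflect only how far these samples spread, part of which may be technical. CTGF samples are numbered before Control samples in the labels, and a slide or batch that goes with treatment cannot be told apart from it.

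CCN proteins are secreted, cysteine-rich matricellular proteins, which signal from the extracellular matrix through integrins, heparan sulphate proteoglycans and LRP receptors rather than building the matrix. Most hold an insulin-like growth factor binding module, a von Willebrand factor type C module, a thrombospondin repeat and a cysteine knot, and the Ccn5 protein lacks the cysteine knot. In the heart CTGF is known as a product of stretched or injured myocytes and of fibroblasts, and as a marker of fibrosis. Ccn1 and Ccn2 are textbook targets of YAP with TEAD and of serum response factor, and Ccn4 and Ccn5 were first described as WNT1-inducible genes.

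Between 14747 and 16390 probes per array were detected at a detection p under 0.05. A probe was tested if detected on at least 6 of the 12 arrays, which 15038 probes were. Of these, 3576 (23.8%) were higher and 2964 (19.7%) lower with CTGF by limma at a Benjamini-Hochberg adjusted p under 0.05. All 14 cardiac myocyte markers on the array passed the filter, and at the brightest probe of each gene 3 were lower and none higher. The share lower, 21.4%, was near that of all genes with 1 probe each, of which 21.1% were lower and 24.2% higher. Several of the brightest myocyte marker probes lay near the top of the signal range, where a change is hard to see. Some other probes of the same genes did change, by -0.78 ± 0.11 for Myh6 and -0.88 ± 0.12 for Actc1 (limma SE). Ttn probes ILMN_2443220 and ILMN_1231542 changed by -1.44 ± 0.28 and -1.54 ± 0.39, while no other tested Ttn probe was called. Further Atp2a2 probes changed in opposite directions, by 0.45 ± 0.07 and -0.29 ± 0.09 (limma SE). Markers of other cells were present too, and their RNA differed between the groups. All 12 measured endothelial markers were lower, and their median change was -1.66 (log2). The summed level of the whole endothelial list lay between 11.18 and 11.40 on the log2 scale with CTGF and between 12.93 and 13.20 in Control, and the defining markers Kdr and Erg were detected on no array. Of 8 smooth muscle and pericyte markers 7 were lower and 1 higher, with summed log2 levels of 11.59 to 11.87 against 12.32 to 12.49. Of 8 fibroblast markers 4 were lower and 1 higher, with summed log2 levels of 12.44 to 12.66 against 12.13 to 12.91, and Postn was detected on no array. Of 12 macrophage markers 3 passed the filter, of which 1 was lower, and no lymphocyte marker passed it. These cells can express CCN genes, and their part in the CCN results was not tested. In RNA from a mixed culture, fewer cells of a type and less RNA per cell cannot be told apart.

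Of the 10 CCN probes 7 were tested, and all 7 changed with CTGF, where 43.5% of all tested probes did. The 3 Ccn1 probes and the 2 Ccn2 probes were lower, while 1 Ccn4 probe and the Ccn5 probe were higher. The 6 arrays of one group lay wholly apart from the 6 of the other for 6 of the 7, where this held for 22.6% of tested probes. Ccn5 was the exception, and it passed the filter through the CTGF group, where it was higher, so that its call is not independent of the filter. The 3 probes that were not tested were both Ccn3 probes and the second Ccn4 probe. Values below are log2 normalized intensities, and probes bind with different strength, so levels are compared between samples and never between probes.

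**Figure D1:**
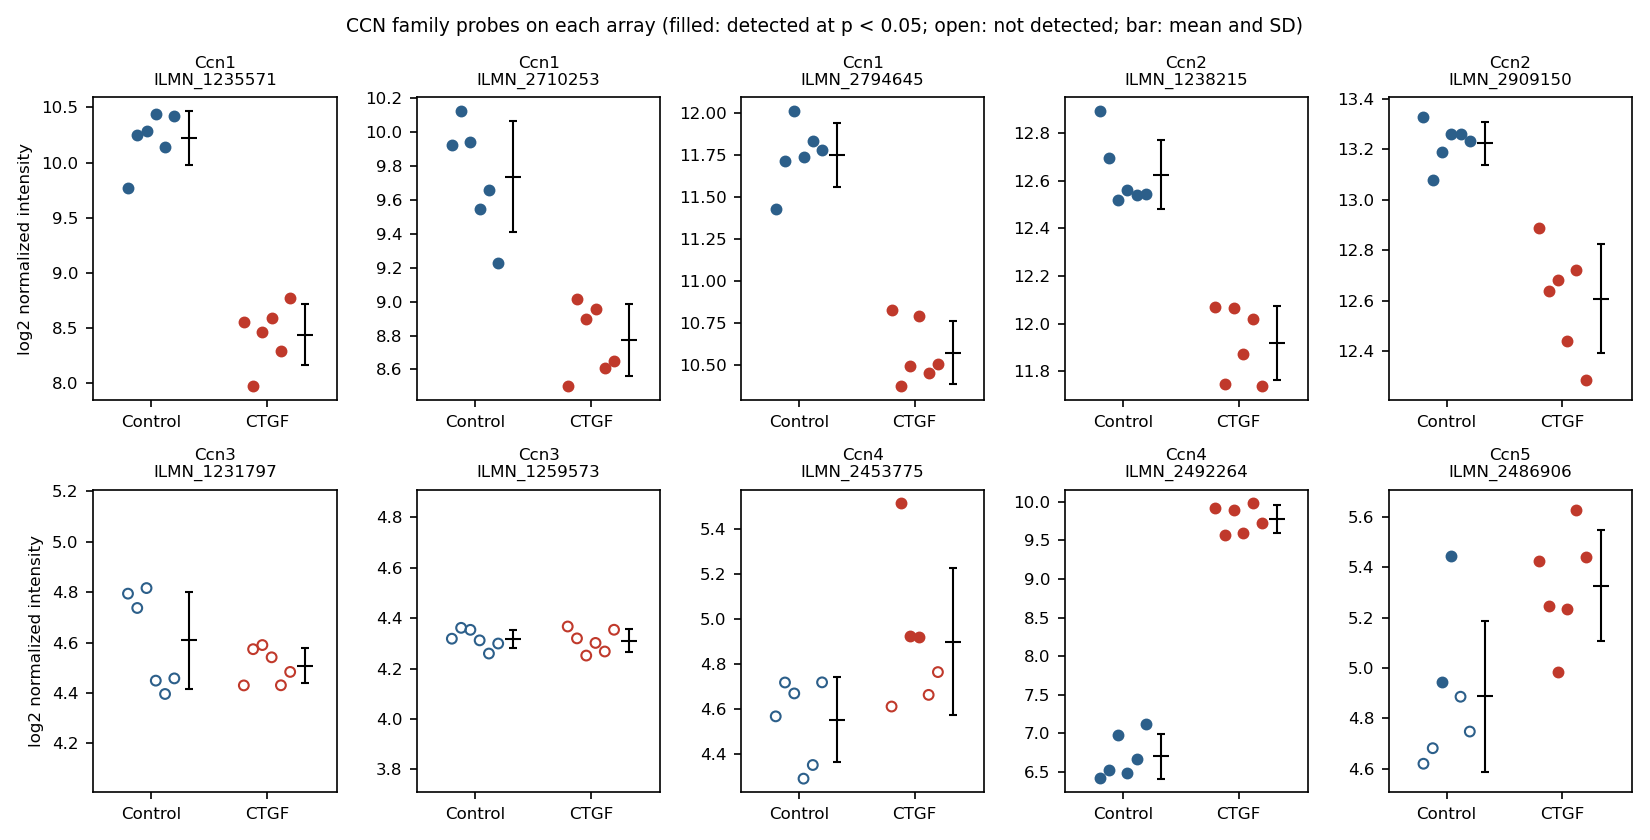
Log2 normalized intensity of each of the 10 CCN probes on the 6 Control (blue) and 6 CTGF (red) arrays, in replicate order within a group, with the mean and SD as a black bar; filled points were detected at p under 0.05 and open points were not, and the vertical axes differ between panels. The Ccn1 and Ccn2 arrays with CTGF lie below all Control arrays, those of Ccn4 probe ILMN_2492264 lie above all Control arrays, and the Ccn3 panels hold open points only.

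The gene of the added protein, Ccn2, gave lower signal in the cultures that received the protein. At probe ILMN_1238215 the 6 Control arrays ran from 12.52 through a median of 12.55 to 12.89, and the 6 CTGF arrays from 11.74 through 11.95 to 12.07. The lowest Control array was thus 0.45 above the highest CTGF array. This probe changed by -0.71 ± 0.09 (limma SE, adjusted p = 2.9e-05), a level 1.63-fold lower, with a 95% interval of -0.91 to -0.51. The second Ccn2 probe, ILMN_2909150, ran from 13.08 through 13.25 to 13.33 in Control and from 12.28 through 12.66 to 12.89 with CTGF. Its groups were separated by a smaller gap of 0.19, and its spread was wider with CTGF (SD 0.21, n = 6) than in Control (SD 0.08, n = 6). It changed by -0.62 ± 0.10 (limma SE, adjusted p = 0.000164), or 1.53-fold lower, with a 95% interval of -0.83 to -0.40. The raw intensity of this probe was 6724 ± 1326 (SD, n = 6) with CTGF against 9194 ± 1022 in Control, and before normalization the groups overlapped, with a highest CTGF array of 8586 and a lowest Control array of 8160. Both probes were detected on all 12 arrays.

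Ccn1 encodes CYR61, an immediate early matricellular protein that binds many of the same integrins as CTGF, and it was lower with CTGF at all 3 probes. Probe ILMN_1235571 ran from 9.77 through a median of 10.27 to 10.44 in Control and from 7.97 through 8.51 to 8.77 with CTGF, with a gap of about 1 between the groups. It changed by -1.78 ± 0.14 (limma SE, adjusted p = 1.24e-07), or 3.43-fold lower. Probe ILMN_2794645 ran from 11.43 through 11.76 to 12.01 in Control and from 10.37 through 10.50 to 10.83 with CTGF. Its change was -1.18 ± 0.11 (limma SE, adjusted p = 7.3e-07), or 2.26-fold lower. Probe ILMN_2710253 ran from 9.23 through 9.79 to 10.12 in Control and from 8.50 through 8.77 to 9.02 with CTGF, the smallest gap of the Ccn1 probes at 0.21. It changed by -0.97 ± 0.14 (limma SE, adjusted p = 8.05e-05), or 1.95-fold lower. The raw intensities moved the same way, at 462 ± 102 (SD, n = 6) against 1101 ± 269 for ILMN_1235571, 1784 ± 282 against 3172 ± 630 for ILMN_2794645 and 556 ± 49.2 against 789 ± 128 for ILMN_2710253. Before normalization the groups overlapped at ILMN_2794645 alone of these 3.

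The RefSeq promoter table (GRCm38.p6) held 1 of the 5 members, Ccn1. Its sequence is shown because Ccn1 had the largest falls of the family and is known to be driven by TEAD and CREB factors. The 250 bases before the annotated start lie at chr3:145649986-145650235 on the minus strand and are written 5′ to 3′ on the strand of the gene, with capitals for a match to the TEAD core GGAATG and one to the CREB core TGACG, both read on the opposite strand.
Ccn1 promoter: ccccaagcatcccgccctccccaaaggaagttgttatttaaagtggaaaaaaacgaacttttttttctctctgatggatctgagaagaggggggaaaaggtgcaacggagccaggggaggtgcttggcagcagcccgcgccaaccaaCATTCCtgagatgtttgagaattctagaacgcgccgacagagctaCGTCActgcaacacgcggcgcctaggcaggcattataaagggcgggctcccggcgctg
The TEAD core lies 103 to 98 bases before the start and the CREB core 58 to 54 bases before it. Among 32841 windows of the same length in the table, 12.6% held GGAATG and 17.8% held TGACG on either strand. The window held no TCF/LEF core CTTTGA (in 13.8% of windows), no AP-1 motif TGANTCA (6.75%) and no CArG box (1.47%). These matches describe the letters only.

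Ccn4 encodes WISP1, a family member described as pro-proliferative and matrix-inducing in fibroblasts, and it was the member with the largest change. Probe ILMN_2492264 ran from 6.42 through a median of 6.59 to 7.12 in Control and from 9.57 through 9.81 to 9.98 with CTGF. Every CTGF array was at least 2.44 above every Control array. The change was 3.08 ± 0.13 (limma SE, adjusted p = 3.46e-10), or 8.47-fold higher, with a 95% interval of 2.81 to 3.36. It ranked 1 of 15038 tested probes by rise, and the next 2 were an unnamed probe at 2.53 and a probe of Lcn2 at 2.45. The raw intensity was 1073 ± 236 (SD, n = 6) with CTGF and 146 ± 26.6 in Control, with no overlap before normalization either. The probe was detected on all 12 arrays.

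The second Ccn4 probe, ILMN_2453775, carries the same gene annotation but stayed near background. It was detected on 0 of 6 Control arrays and 3 of 6 CTGF arrays, replicates 2, 3 and 4. Its values ran from 4.29 through 4.62 to 4.72 in Control and from 4.61 through 4.84 to 5.51 with CTGF, and the groups overlapped. Detected on 3 arrays, it fell under the filter. Its CTGF mean was 1.02-fold higher than the Control bound, for which each Control array was given its dimmest detected signal, or the probe's own signal if higher. This is not a lower limit for a rise, because the CTGF mean took in arrays not above background, and replicate 2 at 5.51. In a fit over all 45281 probes it did not pass (limma adjusted p = 0.144). The rise of Ccn4 thus rests on 1 of its 2 probes.

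Ccn5 encodes WISP2, which in the heart has been described as counteracting CTGF, and its single probe ILMN_2486906 was low throughout. It was detected on 6 of 6 CTGF arrays but on 2 of 6 Control arrays, replicates 3 and 4. Its values ran from 4.62 through a median of 4.82 to 5.44 in Control and from 4.99 through 5.33 to 5.62 with CTGF. The groups overlapped because of Control replicate 4, which at 5.44 was above 5 of the 6 CTGF arrays, and without it the highest Control array was 4.95. The fitted change was 0.44 ± 0.14 (limma SE, adjusted p = 0.0193), whose size is uncertain because 4 of the 6 Control arrays were not above background. Without background subtraction the change was 0.19 ± 0.07 (limma SE, adjusted p = 0.0368). On the authors' normalized values, which nearly match that setting, it was 0.19 too. Its raw intensity was 96.5 ± 12.5 (SD, n = 6) with CTGF against 81.4 ± 7.43 in Control.

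Ccn3 encodes NOV, a member often reported to move opposite to CTGF, and neither of its probes was above background on any of the 12 arrays. Probe ILMN_1231797 ran from 4.40 through 4.60 to 4.82 in Control and from 4.43 through 4.51 to 4.59 with CTGF, with detection p between 0.06 and 0.58. Probe ILMN_1259573 ran from 4.26 through 4.32 to 4.36 and from 4.25 through 4.31 to 4.37, with detection p between 0.62 and 0.94. Ccn3 RNA was thus not detectable in either group with these probes, and no fold is given.

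**Figure D2:**
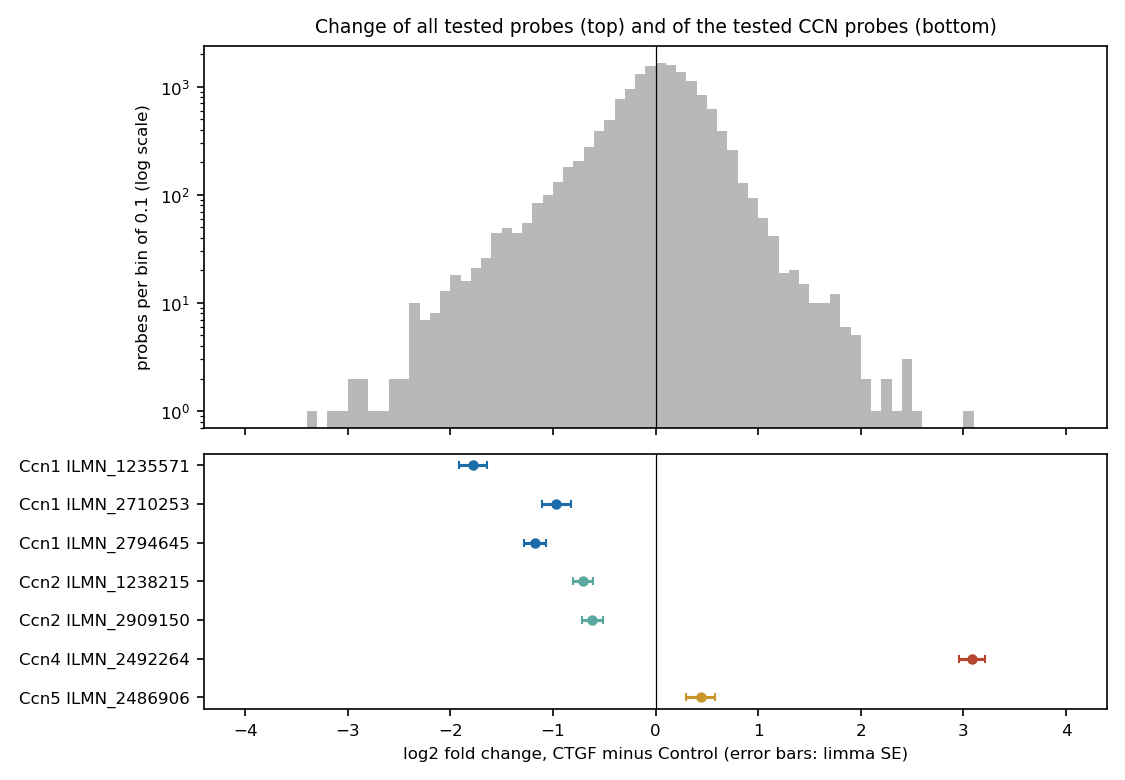
Top, number of tested probes per bin of 0.1 in log2 fold change (CTGF minus Control, logarithmic count axis); bottom, log2 fold change of the 7 tested CCN probes with the limma standard error as error bar, on the same horizontal axis. Ccn4 probe ILMN_2492264 at 3.08 is the rightmost of the 15038 probes, Ccn1 and Ccn2 lie between -1.78 and -0.62, and Ccn5 is at 0.44.

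Whether 2 probes changed by unequal amounts was tested on their difference within each array, which cancels a factor shared by all probes of the array. Sizes could still move with the normalization. For Ccn1 probe ILMN_1235571 minus Ccn2 probe ILMN_2909150 the difference was -1.16, and -0.87 without normalization between arrays. All 21 pairs of the 7 tested probes were compared by two-sided exact permutation over 924 assignments, whose smallest p is 0.00216, and p-values were adjusted over the 21 pairs. The change differed in 17 pairs. These took in all 10 pairs of a probe that fell with one that rose. For the pairs of Ccn4 with a falling probe this was fixed in advance. The groups lay wholly apart at both probes in opposite directions, so the test adds nothing there. Of the 17 pairs 6 involved Ccn5, and no size is given for them because most of its Control values were at background. Their calls, like that of Ccn5 itself, are not independent of the filter. Among the falling genes, the change of Ccn1 probe ILMN_1235571 differed from those of the Ccn2 probes by -1.07 ± 0.20 and -1.16 ± 0.21 (SE, exact permutation adjusted p = 0.00649 for both, n = 6 and 6). Ccn1 probe ILMN_2794645 fell by more than Ccn2 probe ILMN_2909150, by 0.56 ± 0.14 on the log2 scale (SE, exact permutation adjusted p = 0.00909, n = 6 and 6). Its difference from Ccn2 probe ILMN_1238215 was 0.47 ± 0.16 in the same direction (exact permutation adjusted p = 0.0187, n = 6 and 6), and the adjusted p was 0.0535 without normalization between arrays. Ccn1 probe ILMN_2710253 gave no called difference from either Ccn2 probe, with differences of -0.26 ± 0.17 and -0.35 ± 0.21 (exact permutation adjusted p = 0.172 and 0.136). A larger fall than at the Ccn2 probes was therefore called at 2 of 3 Ccn1 probes. It does not rank the genes, because Ccn1 probes also differed among themselves, as given next.

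Probes of the same gene did not always give the same change. The 2 Ccn2 probes differed in change by -0.09 ± 0.08 (SE, exact permutation adjusted p = 0.305, n = 6 and 6). Ccn1 probe ILMN_1235571 fell by 0.60 ± 0.12 more than ILMN_2794645 (exact permutation adjusted p = 0.00379, n = 6 and 6). It fell by 0.81 ± 0.26 more than ILMN_2710253 (exact permutation adjusted p = 0.0114). The other Ccn1 pair differed by 0.21 ± 0.21 (exact permutation adjusted p = 0.346, n = 6 and 6). The Ccn1 probes also ranked the arrays of a group differently. In Control, replicate 1 was lowest at ILMN_1235571 (9.77) and ILMN_2794645 (11.43), while replicate 6 was lowest at ILMN_2710253 (9.23) and replicate 1 was at 9.92 there. Over the 12 arrays, deviations from the group mean had a Pearson correlation of 0.61 between ILMN_1235571 and ILMN_2794645, but of -0.45 and -0.19 between ILMN_2710253 and these probes, and of 0.58 between the 2 Ccn2 probes. These correlations describe small deviations on arrays that all probes share. The part of transcript each probe binds is not used here.

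Between probes of different genes the same correlations ran from -0.57 to 0.41. The genes most like the probe with the highest mean signal of each member by this measure were Nav1, Mrpl52 and Fnbp1 for Ccn1 (0.88, 0.87 and 0.87), Gars, Apeh and Smtn for Ccn2 (0.93, 0.91 and 0.91), Pitpna, Miga2 and Cyth3 for Ccn4 (0.92, 0.91 and 0.91), and Kifap3, Ccdc71 and Edf1 for Ccn5 (0.87, 0.86 and 0.86). These values are the highest among all tested genes over 12 arrays and are given as a description.

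The receptors through which CCN proteins act were measured next to their ligands. Of 16 measured genes on the receptor and coreceptor list 4 were higher and 6 lower, a share of 25% and 37.5%, where of all genes with 1 probe each 45.3% were called, 24.2% higher and 21.1% lower, and the median log2 fold change was -0.14 against 0.03 for all genes. The integrin subunit genes Itga5, Itgb5 and Itgav, whose products form fibronectin and vitronectin receptors, rose by 1.25 ± 0.12, 0.78 ± 0.11 and 0.40 ± 0.12 (limma SE, adjusted p = 8.1e-07, 5.47e-05 and 0.0121). Itga6, a laminin receptor subunit that binds CYR61 and CTGF, was called lower (limma adjusted p = 2.22e-06), but it was detected on 1 of 6 CTGF arrays against 6 of 6 Control arrays, so the size of its fall is uncertain. Notch1, to whose product NOV binds, changed by -1.44 ± 0.13. It was detected on 5 of 6 CTGF arrays at a CTGF mean of 4.98, near background, so the size of its fall is uncertain. Fgfr2 changed by -0.94 ± 0.11, although a second Fgfr2 probe gave -0.11. The level of Lrp6 changed by 0.14 ± 0.11 and that of the syndecan gene Sdc4 by -0.20 ± 0.11, and neither passed. Itgb1 did not pass either, at 0.56 ± 0.35. The proteoglycan gene Hspg2 changed by -0.39 ± 0.09, with -0.29 ± 0.09 at its second probe, both called. Sdc1 was called lower but was detected on 1 of 6 CTGF arrays, so the size of its fall is uncertain. Fn1 changed by -0.74 ± 0.10 and Bgn by 0.36 ± 0.12 (limma SE), both called. Itgb3 was detected on no array. Without normalization between arrays 7 genes of this list were higher, but in that setting 7261 of all 15038 tested probes were higher and 1067 lower. Endothelial cells also express Notch1 and Itga6, and all 12 measured endothelial markers were lower on the same arrays, whose part in these changes was not tested.

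Of 9 measured genes for secreted partners of CCN proteins 3 were lower and 1 higher (33.3% and 11.1%, against 21.1% and 24.2% of all genes). Without normalization between arrays 4 were higher, where 7261 of all 15038 tested probes were. Igf2, an insulin-like growth factor, changed by -1.69 ± 0.08, Pdgfb, a platelet-derived growth factor chain, by -1.11 ± 0.09 and Bmp4 by -0.98 ± 0.12 (limma SE). Tnfrsf11b, which encodes the decoy receptor osteoprotegerin, was detected on all 6 CTGF arrays but on no Control array. With the Control bound used for the second Ccn4 probe, its rise was at least 1.29-fold. It passed the filter only through the CTGF group, where it was higher. Its call (limma adjusted p = 1.33e-05, from the measured values) is thus not independent of the filter. The TGF-beta genes did not pass, with 0.20 ± 0.09 for Tgfb1, 0.33 ± 0.19 for Tgfb2 and 0.06 ± 0.14 for Tgfb3. The 2 Vegfa probes disagreed, at 0.12 ± 0.10 (not called) and -0.56 ± 0.10 (limma SE, adjusted p = 0.000469).

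Other YAP and TEAD target genes were divided. Of 18 measured targets 7 were lower and 2 higher (38.9% and 11.1%, against 21.1% and 24.2% of all genes), with a median log2 fold change of -0.20. Birc5, called higher, was detected on 6 of 6 CTGF arrays but 1 of 6 Control arrays. Slit2, called lower, was detected on 2 of 6 CTGF arrays and 6 of 6 Control arrays. Both passed the filter through the group where they were higher, so these calls are not independent of it. Igfbp3, an insulin-like growth factor binding protein, changed by -1.20 ± 0.12, Gadd45b, a stress sensor, by -1.06 ± 0.09 and Amotl2, an angiomotin, by -0.93 ± 0.13, while Nt5e, the ecto-5′-nucleotidase CD73, rose by 0.89 ± 0.09 (limma SE), with 0.26 at its other probe. Ankrd1, a YAP target abundant in myocytes, did not pass, at -0.07 ± 0.08. Its probe had a mean log2 level of 14.94, near the top of the signal range, where a change is hard to see. Without normalization between arrays the split was 4 lower and 6 higher, and it was the same under median scaling. Over all 15038 tested probes the counts moved too, to 1067 lower and 7261 higher and to 1146 lower and 6959 higher. The counts of this list thus depend on the scaling between arrays, as those of all probes do. Of 11 genes of the pathway itself 5 were higher and 3 lower (45.5% and 27.3%, against 24.2% and 21.1% of all genes). Yap1 rose by 0.77 ± 0.09, Tead1 by 0.56 ± 0.08 and the kinase gene Taok1 by 0.56 ± 0.11 (limma SE), while Wwtr1, which encodes TAZ, changed by -0.52 ± 0.11 at its brightest probe but by 0.37 ± 0.12 and 0.37 ± 0.13 at its other 2, all called, and Tead2 changed by -0.62 ± 0.19. None of the 11 genes was called lower without normalization between arrays or under median scaling, where fewer of all tested probes were called lower too, as given above.

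Targets of serum response factor and its MRTF cofactors were lower in 8 of 17 cases and higher in 2 (47.1% and 11.8%, against 21.1% and 24.2% of all genes), and their median change was -0.33 (log2). Without normalization between arrays 6 were lower and 5 higher, where 1067 of all 15038 tested probes were lower and 7261 higher. The immediate early gene Fos changed by -1.67 ± 0.09 and the tropomyosin genes Tpm2 and Tpm1 by -1.12 ± 0.10 and -0.95 ± 0.10, while Fhl1, a LIM domain protein of muscle, rose by 1.15 ± 0.08 (limma SE). Of 10 measured WNT and beta-catenin targets 5 were lower and 2 higher (50% and 20%, against 21.1% and 24.2% of all genes). Their median was -0.41, and without normalization between arrays 4 were lower and 2 higher, against the same counts over all probes. Jun changed by -1.44 ± 0.09, the cyclin gene Ccnd1 by -1.11 ± 0.10 and Sox9 by -0.87 ± 0.08, while Cd44, the hyaluronan receptor gene, rose by 1.32 ± 0.17 (limma SE). Axin2, the most widely used WNT target, did not pass, at -0.35 ± 0.18, and Dkk1, Lgr5, Sp5 and Rnf43 were detected on no array. On the same arrays the endothelial list (12 of 12 lower) and the smooth muscle list (7 of 8 lower) were lower, smooth muscle also expresses Tpm1 and Tpm2, and the part of either cell type was not tested.

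**Figure D3:**
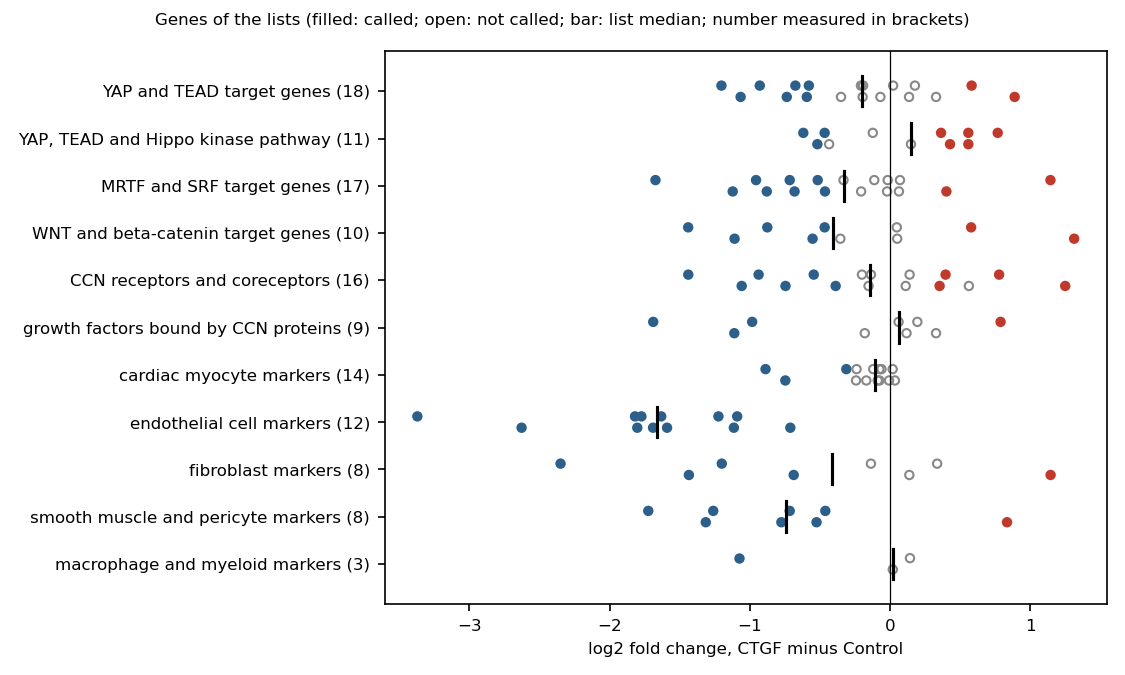
Log2 fold change (CTGF minus Control) of each measured gene of the pathway and marker lists, 1 probe a gene, with filled points for genes called higher (red) or lower (blue), open points for genes not called, and a black bar at the list median. The endothelial list lies wholly below 0 with a median of -1.66, while the 6 CCN-related lists hold genes on both sides and have medians between -0.41 and 0.15.

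The direction of every tested CCN probe was the same under each other background, scaling, filter and weighting that was tried. Sizes moved by over 1.5 times in 2 cases, Ccn5 without background subtraction (above) and Ccn1 probe ILMN_2710253 without scaling between arrays, which gave -0.54 ± 0.14, with -0.56 ± 0.14 under median scaling (limma SE). Both of those settings moved the median log2 fold change of all tested probes from 0.05 to 0.34 and 0.32. The values above are changes relative to that of the other probes on the array. The rise of Ccn4 ranged from 2.57 to 3.46 over the settings.

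**Figure D4:**
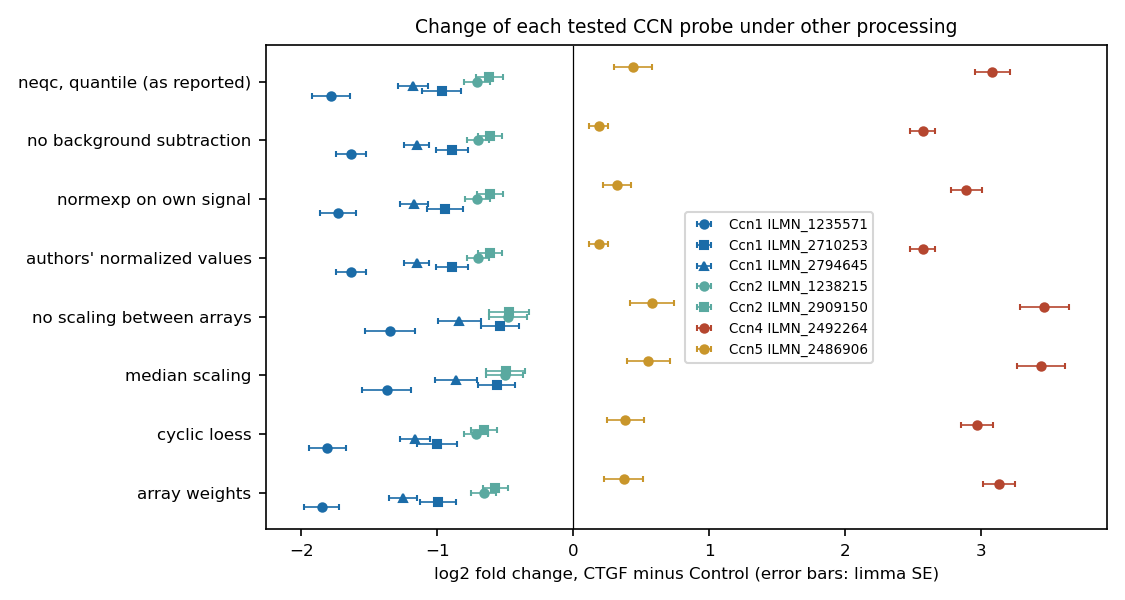
Log2 fold change (CTGF minus Control) of the 7 tested CCN probes, with limma standard errors, under 8 ways of treating background, scaling and array weights. The authors' normalized values and no background subtraction gave nearly the same results. Without scaling between arrays all probes shift to higher values together, the Ccn1 and Ccn2 probes stay below 0, and Ccn4 stays between 2.57 and 3.46.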

How the data were processed

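RNA of 12 myocyte cultures was measured on Illumina bead arrays. Per the file headers, the deposited table holds the average bead intensity and a detection p-value for each of 45281 probes, not normalized. The authors' deposited normalized intensity table, whose method is not given in the sources used here, served as an alternative. It gave nearly the same results as quantile normalization without background subtraction, so it does not count as a separate setting. Probes called higher and lower were 3631 and 3036 with it, against 3630 and 3036. Background correction with detection p-values (neqc, offset 16), quantile normalization and log2 were done in limma 3.58.1 (R 4.3.3). Probes detected at p under 0.05 on at least 6 of 12 arrays were fitted with lmFit and eBayes, and p-values were adjusted by Benjamini-Hochberg over all 15038. The fit was checked on simulated data. With 6 arrays a group, their number limits the precision.

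Probes were named from the platform annotation, updated through RefSeq by Entrez identifier (34807 probes) or accession (11 probes). Of all probes 34885 had 1 symbol, 18 several and 10378 none. For a gene list, the probe with the highest mean stood for a gene. A list gene detected mainly in 1 group passed the filter through the group where it was higher, so its call is not independent of the filter. From each list up to 4 called genes with the largest change are named (the 2 brightest if under 2 were called), and each CCN gene names the 3 genes with the most similar deviations. Other list genes were chosen after their values were seen. The members and lists were chosen with earlier results of these data known. Samples with the same replicate number did not deviate together (correlations of -0.07 to 0.05), so no pairing was used. Slides were not used here. Alternatives were other background, scaling, filter, variance, weight and threshold settings, 1 probe a gene, and leaving out each array.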

Additional observations from a re-analysis of the deposited data

Results flagged for a closer look

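At Ccn4 probe ILMN_2453775, CTGF replicate 2 was at 5.51 on the log2 scale and the nearest of the other 5 CTGF arrays at 4.92, a gap larger than Dixon's 95% limit for 6 samples. It was the 1 array set apart among 20 probe and group combinations checked, and chance sets apart about 1 in 20. At the other Ccn4 probe, ILMN_2492264, the same array was the lowest of the CTGF group, at 9.57.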

How the results depend on the processing

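The 7 CCN probes kept their direction under every alternative that could be fitted, and all 7 stayed called except where the threshold itself was changed. At an adjusted p under 0.01 Ccn5 (0.44, adjusted p = 0.0193) was not called, and with a 2-fold minimum Ccn5, both Ccn2 probes (-0.71 and -0.62) and Ccn1 probe ILMN_2710253 (-0.97) were not. Ccn5 failed the filters for detection on all arrays and for detection p under 0.01, and gave no value there. With each array left out in turn, the changes ran from -1.86 to -1.69, -1.07 to -0.89 and -1.24 to -1.12 for Ccn1 probes ILMN_1235571, ILMN_2710253 and ILMN_2794645, from -0.74 to -0.65 and -0.68 to -0.55 for Ccn2, from 3.03 to 3.16 for Ccn4 and from 0.37 to 0.55 for Ccn5, whose highest adjusted p was 0.0483. Probes called higher and lower, 3576 and 2964, became 7261 and 1067 without normalization between arrays, 6959 and 1146 with arrays scaled to one median, 3032 and 3362 under cyclic loess, 2229 and 1924 with 1 probe a gene, 2376 and 2105 at an adjusted p under 0.01, and 211 and 507 with a 2-fold minimum. They ran from 3151 to 3584 and 2691 to 2938 with 1 array left out. With the replicate number as a replicate block they were 3365 and 2786, and all 7 CCN calls were kept, with an adjusted p of 0.0349 for Ccn5. Called pairs of probes numbered 17, and 16 without normalization between arrays. Signal near background limits Ccn3, Ccn5 and the second Ccn4 probe.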
